A study of Mus with 18 samples.

Results

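The 8 genes described here (H2-Aa, H2-Ab1, H2-Eb1, H2-DMa, Cd74, Ciita, Cd80 and Cd86) make up the core of antigen presentation on class II molecules of the major histocompatibility complex (MHC), together with its costimulatory ligands. They were chosen by symbol from the 21401 genes of each table of FPKM values (fragments scaled to transcript length and to the depth of the library), and all 8 were found in both tables. RNA was sequenced from 18 libraries, 9 from C2C12 cells, a line of mouse myoblasts, and 9 from the gastrocnemius, a calf muscle, of male C57BL/6 mice, both of wild type genotype, with 3 libraries in each group. The C2C12 groups were a saline vehicle control, lipopolysaccharide (LPS, a component of the bacterial outer membrane) at 1 μg/mL, and LPS at 1 μg/mL with 10 μM MIC-1 (moringa isothiocyanate-1) for 24 h. The study's text gives another concentration of MIC-1 for the cells than the labels used here. The muscle groups were a saline vehicle control, LPS at 10 mg/kg by intraperitoneal injection, and the same LPS dose after 3 days of MIC-1 by gavage at 80 mg/kg, the latter given in DMSO. The study's text instead names ethanol as the vehicle of the cells and DMSO by mouth for the control mice. Muscles were taken 16 h after LPS. No group received MIC-1 without LPS, and the age of the mice and the time that the C2C12 LPS group spent with LPS are not given in the labels. Nothing in the labels says whether the C2C12 libraries came from separate cultures, so their p-values may measure only technical spread.

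Class II molecules are pairs of an α and a β chain that carry peptides from endosomes to the cell surface, where CD4+ T cells read them. Cd74, the invariant chain, fills the groove of new pairs and steers them to endosomes, and H2-DMa is a chain of the exchange factor that replaces the remnant of Cd74 with peptide. Ciita is the transcriptional coactivator on which the chain genes depend, and it is itself switched on by interferon-γ. Cd80 and Cd86 are the ligands that give the second signal to the T cell through CD28. Macrophages, dendritic cells and B cells are the usual carriers of the whole set, and LPS is a classical inducer of Cd80 and Cd86 in macrophages.

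The identity of the libraries bears on every value that follows. In the C2C12 experiment, 15 of 16 macrophage markers were found, and their FPKM values summed to between 9695 and 9747 in the control libraries and between 6931 and 7104 with LPS, but to no more than 79.9 to 269 with LPS-MIC-1. The 11 myoblast markers ran the other way, with sums of 1.08 to 1.52 in control, 2.43 to 4.58 with LPS, and 1086 to 1385 with LPS-MIC-1. Lyz2, the lysozyme of macrophages, averaged 4694 FPKM in control, whereas Des, the muscle intermediate filament, averaged 0.126 FPKM there and 398 FPKM in LPS-MIC-1. The libraries labelled control and LPS therefore held 10 and 9 of the 11 markers of the labelled myoblast line below 1 FPKM throughout, and those labelled LPS-MIC-1 only 1 of 11. MIC-1 treatment and this difference in identity cannot be told apart in either comparison of the C2C12 LPS-MIC-1 group. In addition, C2C12 LPS-MIC-1 replicate 1 and muscle LPS-MIC-1 replicate 3 each stood above both other replicates of their group in 12 of 15 macrophage markers, against 30.7% and 25.8% of all tested genes. Where a result below rests on one of these 2 libraries, its value without that library is given as well.

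Tests were made with limma on log2(FPKM + 0.1), in which a fold change understates the change of low genes, for genes with a mean FPKM over 1. A gene was called when its log2 fold change was over 1 in size and its adjusted p (Benjamini-Hochberg, over all genes tested) was under 0.001 in C2C12 or 0.05 in muscle. Of the 8 members, 4 passed the FPKM filter in C2C12 (Cd74, Cd80, Cd86 and H2-DMa) and 4 in muscle (Cd74, H2-Aa, H2-Ab1 and H2-Eb1), and the rest are described by their values. By the authors' mean normalized counts, 1 FPKM corresponded to between 15.8 (H2-Aa) and 86.9 (Ciita) counts in C2C12 and to between 13.1 (H2-Aa) and 71.9 (Ciita) counts in muscle, as an average over libraries. With 3 libraries against 3, an exact 2-sided permutation test cannot give a p under 0.1.

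In the C2C12 libraries, Cd80 and Cd86 rose by large factors with LPS, H2-DMa fell, and Cd74 was high in control and LPS and low in LPS-MIC-1. The chain genes H2-Aa, H2-Ab1 and H2-Eb1 and the coactivator Ciita stayed below 1 FPKM in all 9 libraries, including those in which Cd74 was at 529 FPKM or more.

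**Figure D1:**
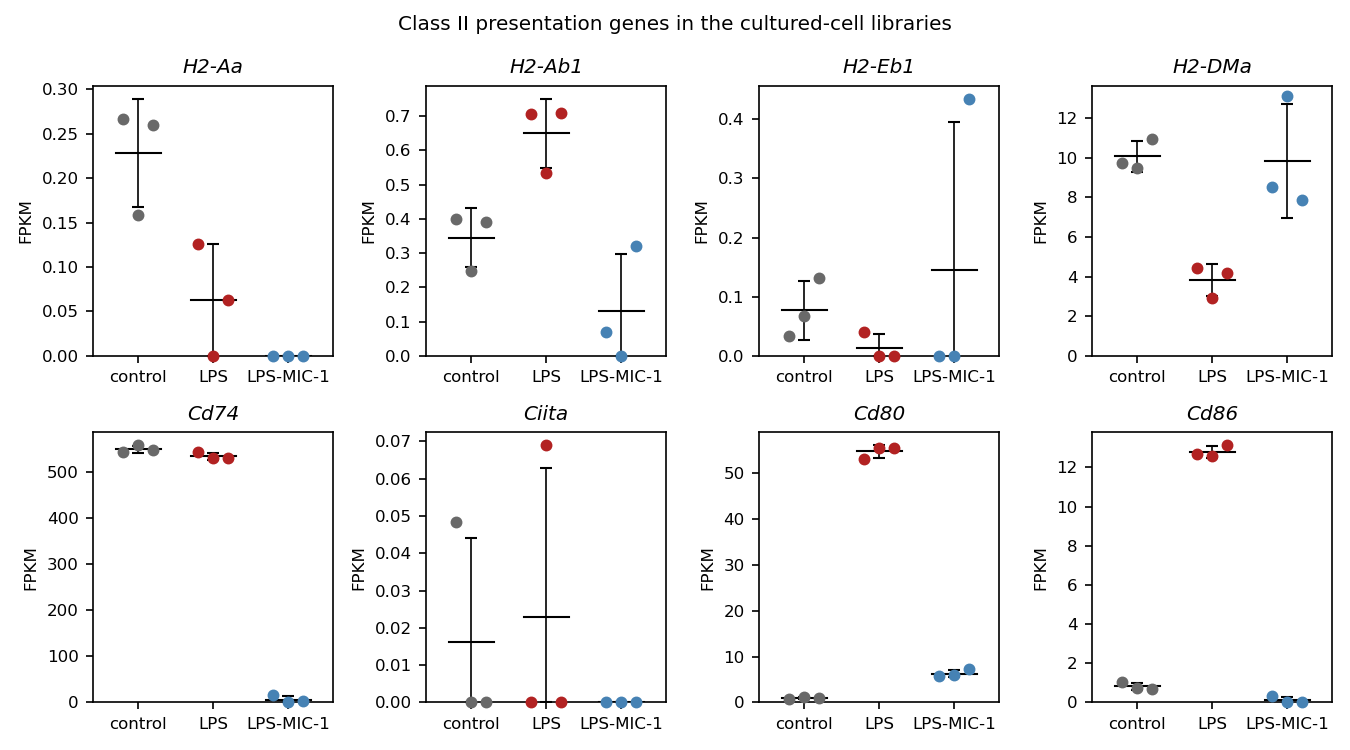
FPKM (linear vertical axes, each from 0) of the 8 genes in the 9 C2C12 libraries; points are libraries, horizontal lines group means and bars 1 SD (n = 3), cut at 0. Cd80 and Cd86 are highest in the LPS libraries, Cd74 is at 529 FPKM or more in control and LPS, and the axes of H2-Aa, H2-Ab1, H2-Eb1 and Ciita end below 1 FPKM.

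Cd80 measured 0.660, 1.08 and 0.871 FPKM in the 3 control libraries, 53.2, 55.6 and 55.5 FPKM with LPS, and 5.69, 5.92 and 7.23 FPKM with LPS-MIC-1. The 3 groups did not overlap, and LPS-MIC-1 lay between the other groups. The mean was 63.0-fold higher in LPS than in control (log2 fold change 5.85, SE 0.163, adjusted p = 6.96e-08 in limma). It was 8.72-fold lower in LPS-MIC-1 than with LPS alone (log2 fold change -3.11, adjusted p = 4.07e-07 in limma) and 7.22-fold higher in LPS-MIC-1 than in control (log2 fold change 2.73, adjusted p = 1.01e-06 in limma). Cd80 was called in all 3 comparisons under each of the 18 alternatives. In the LPS-MIC-1 libraries Cd80 was at 5.69 FPKM or more. Their macrophage list had a median of 4.62 FPKM in replicate 1, 0.204 in replicate 2 and 0.103 in replicate 3. That median hides Cd14, a marker of the list, which measured 136, 73.8 and 88.3 FPKM in these libraries.

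Cd86, the second B7 ligand, measured 1.04, 0.734 and 0.705 FPKM in control and 12.7, 12.6 and 13.1 FPKM with LPS. With LPS-MIC-1 it measured 0.325 FPKM in replicate 1 and was listed at 0 in replicates 2 and 3, where 3 counts would correspond to 0.0757 FPKM. No library of one group reached the range of another. Cd86 was 15.5-fold higher in LPS than in control (log2 fold change 3.82, SE 0.521, adjusted p = 0.0003 in limma), a call that was lost on leaving out any one of the 6 control and LPS libraries (adjusted p between 0.00128 and 0.0019 at log2 fold changes of 3.73 to 3.98). It was lower in LPS-MIC-1 than with LPS alone (log2 fold change -6.31, adjusted p = 6.68e-06 in limma), a size that depended on the pseudocount, from -3.65 at 1 to -8.63 at 0.01, and that was -7.01 without LPS-MIC-1 replicate 1. The difference between LPS-MIC-1 and control was not past the threshold (log2 fold change -2.50, adjusted p = 0.00225 in limma) but passed it without LPS-MIC-1 replicate 1 (log2 fold change -3.19, adjusted p = 1.83e-06).

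Both costimulatory ligands therefore followed LPS, but unequally. The ratio of Cd80 to Cd86 was between 0.636 and 1.47 in the control libraries and between 4.20 and 4.42 in the LPS libraries, without overlap. In LPS-MIC-1 the ratio could be formed only in replicate 1, where it was 17.5.

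Cd74 measured 542, 557 and 546 FPKM in control and 542, 529 and 529 FPKM with LPS, which makes it the most abundant member by far. With LPS-MIC-1 it measured 15.6, 1.02 and 2.19 FPKM. Control and LPS were nearly level, with a log2 fold change of -0.040 and a 95% interval of -1.93 to 1.85 in the fit over all 9 libraries (adjusted p = 0.981 in limma). This wide interval includes the spread among the LPS-MIC-1 libraries, and the SE fell from 0.815 to 0.0187 when only the 6 libraries compared were fitted (adjusted p = 0.105 in limma). LPS-MIC-1 was 85.3-fold lower than LPS (log2 fold change -7.29, SE 0.815, adjusted p = 4.59e-05 in limma) and 87.6-fold lower than control (log2 fold change -7.32, adjusted p = 5.04e-05 in limma). Without LPS-MIC-1 replicate 1, the highest of its group, these changes were -8.38 and -8.42.

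H2-DMa, the peptide exchange factor chain, had a pattern of its own. It measured 9.75, 9.48 and 10.96 FPKM in control, 4.42, 2.91 and 4.18 FPKM with LPS, and 8.51, 13.1 and 7.88 FPKM with LPS-MIC-1. LPS was below both other groups, and control and LPS-MIC-1 overlapped. H2-DMa was 2.62-fold lower in LPS than in control (log2 fold change -1.39, SE 0.222, adjusted p = 0.000745 in limma) and 2.56-fold higher in LPS-MIC-1 than in LPS (log2 fold change 1.32, adjusted p = 0.000589 in limma). LPS-MIC-1 and control differed by -0.068 on the log2 scale, with a 95% interval of -0.58 to 0.45 (adjusted p = 0.787 in limma). Both calls stood close to the threshold: they were lost on leaving out any single library except LPS-MIC-1 replicate 2 or 3 (adjusted p between 0.00113 and 0.0042 against control, and between 0.00128 and 0.00196 against LPS), with the direction kept. H2-DMa overlaps the gene model of Brd2 in the RefSeq annotation (GRCm38.p6), and whether the libraries kept strand is not given in the sources used here.

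The remaining 4 members rested on few counts in C2C12. H2-Ab1 (β chain of I-A) measured 0.399, 0.246 and 0.389 FPKM in control, 0.706, 0.534 and 0.709 with LPS, and 0.0691, 0 and 0.320 with LPS-MIC-1. Its LPS libraries were above both other groups, on about 8.98 to 11.9 counts a library. H2-Aa (α chain of I-A) measured 0.267, 0.158 and 0.260 FPKM in control and 0.126, 0 and 0.0633 with LPS, and was listed at 0 in all 3 LPS-MIC-1 libraries. The control libraries of H2-Aa held only 2.49 to 4.20 counts each, so no fold is given. H2-Eb1 (β chain of I-E) measured 0.0337, 0.0667 and 0.132 FPKM in control, 0.0399, 0 and 0 with LPS, and 0, 0 and 0.434 with LPS-MIC-1, with all groups overlapping. Ciita was above 0 in 2 libraries, at 0.0484 FPKM in control replicate 1 and at 0.0690 FPKM in LPS replicate 2. At about 86.9 counts per FPKM, Ciita was the member that could be read at the lowest level, with 3 counts at 0.0345 FPKM.

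Counted over the members, LPS against control gave 3 called of 4 tested in C2C12, where 20.9% of all tested genes were called. Of the 3, 2 were higher (10.9% of all genes) and 1 was lower (10.0%). Cd86 averaged 0.826 FPKM in control, 12.8 with LPS and 0.108 with LPS-MIC-1, so it passed the FPKM filter only through the LPS group. Its part in the counts of both comparisons with LPS was thus partly fixed by the filter. LPS-MIC-1 against LPS gave 4 of 4, where 49.9% of all genes were called, with 1 higher (24.3%) and 3 lower (25.6%). LPS-MIC-1 against control gave 2 of 4, where 43.3% were called, with Cd80 higher (21.1%) and Cd74 lower (22.1%). With the background this high in the last pair of comparisons, the members' counts there are not a result about the members. The groups did not overlap for 6, 5 and 4 of the 8 members in the 3 comparisons, against 79.4%, 85.5% and 83.0% of the genes past the FPKM filter. These comparisons share libraries in pairs and are not independent of each other.

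**Figure D2:**
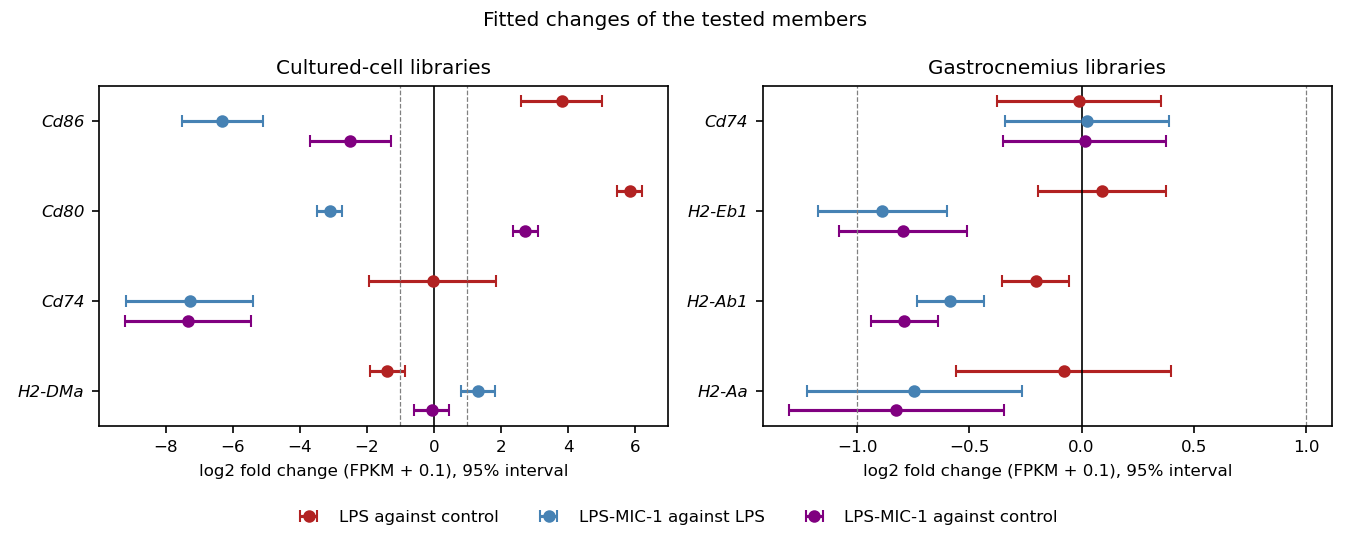
Log2 fold change of FPKM + 0.1 with its 95% interval from limma (horizontal axes, on different ranges) for the tested members in C2C12 (left) and in gastrocnemius (right), 3 libraries a group; dashed lines mark a log2 fold change of 1 in size. In C2C12 the changes run from -7.32 (Cd74) to 5.85 (Cd80), whereas in muscle the 3 chain genes lie between -0.58 and -0.89 in both comparisons of LPS-MIC-1, and Cd74 lies at 0.024 and 0.013.

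In the gastrocnemius the set looked different. The 3 chain genes were well measured and 1.51 to 1.88 times lower in LPS-MIC-1 than in either other group, Cd74 differed between no groups past the threshold, and Cd80, Cd86 and Ciita were near 0. LPS without MIC-1 moved no tested member past the threshold.

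**Figure D3:**
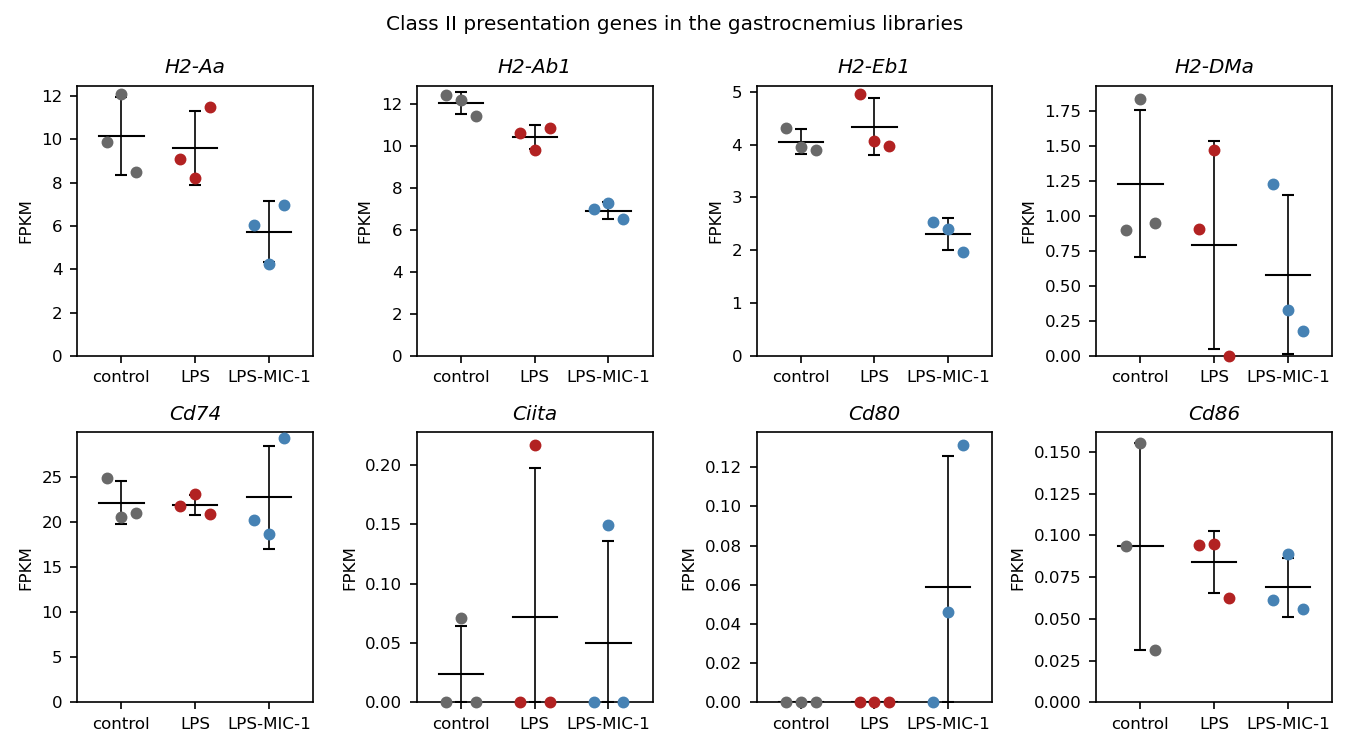
FPKM (linear vertical axes, each from 0) of the 8 genes in the 9 gastrocnemius libraries; points are libraries, horizontal lines group means and bars 1 SD (n = 3), cut at 0. H2-Aa, H2-Ab1 and H2-Eb1 are lower in all 3 LPS-MIC-1 libraries than in the other 6 libraries, and Cd74 is highest in LPS-MIC-1 replicate 3, at 29.3 FPKM.

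H2-Ab1 measured 12.5, 12.2 and 11.5 FPKM in control, 10.7, 9.82 and 10.9 FPKM with LPS, and 7.00, 7.28 and 6.52 FPKM with LPS-MIC-1. The 3 groups formed separate steps with no overlap. LPS-MIC-1 was lower than LPS by a factor of 1.51 (log2 fold change -0.58, SE 0.0653, adjusted p = 0.000102 in limma) and lower than control by a factor of 1.74 (log2 fold change -0.79, adjusted p = 1.59e-05 in limma). LPS against control gave a log2 fold change of -0.20 (95% interval -0.35 to -0.055, adjusted p = 0.0718 in limma), which was not past the threshold.

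H2-Aa measured 9.89, 12.1 and 8.48 FPKM in control, 9.10, 8.20 and 11.5 FPKM with LPS, and 6.02, 4.23 and 6.97 FPKM with LPS-MIC-1. Control and LPS overlapped, and all LPS-MIC-1 libraries lay below both. Its log2 fold change was -0.75 against LPS (SE 0.209, adjusted p = 0.0151 in limma) and -0.83 against control (adjusted p = 0.00907 in limma). The first of these missed the threshold without LPS replicate 3 (log2 fold change -0.61, adjusted p = 0.0534).

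H2-Eb1 measured 4.32, 3.95 and 3.89 FPKM in control, 4.96, 4.08 and 3.98 FPKM with LPS, and 2.54, 2.40 and 1.96 FPKM with LPS-MIC-1. It was likewise lowest in the LPS-MIC-1 libraries, without overlap, and control and LPS overlapped. Its log2 fold change was -0.89 against LPS (SE 0.124, adjusted p = 0.000388 in limma) and -0.80 against control (adjusted p = 0.000702 in limma). LPS against control gave -0.080 for H2-Aa (adjusted p = 0.837 in limma) and 0.091 for H2-Eb1 (adjusted p = 0.681 in limma). H2-Ea, the gene of the α chain of I-E, was listed at 0 in all muscle libraries. The H2-Eb1 values are thus those of a β chain RNA without RNA seen for its partner.

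Cd74 measured 24.9, 20.6 and 21.0 FPKM in control, 21.8, 23.1 and 20.9 FPKM with LPS, and 20.2, 18.6 and 29.3 FPKM with LPS-MIC-1. All groups overlapped, and the highest value was that of LPS-MIC-1 replicate 3. The log2 fold changes were -0.011 for LPS against control (adjusted p = 0.973 in limma), 0.024 for LPS-MIC-1 against LPS (95% interval -0.34 to 0.39, adjusted p = 0.911 in limma) and 0.013 for LPS-MIC-1 against control (adjusted p = 0.951 in limma). Without LPS-MIC-1 replicate 3 the last pair became -0.17 (adjusted p = 0.157 in limma) and -0.18 (adjusted p = 0.131 in limma), still short of the threshold.

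Within libraries, the balance between Cd74 and the chains shifted in LPS-MIC-1. The ratio of Cd74 to H2-Ab1 in FPKM was 1.69 to 1.99 in control, 1.92 to 2.35 with LPS, and 2.56 to 4.50 with LPS-MIC-1, where replicate 3 was the highest. Leaving that library out, the LPS-MIC-1 ratios were 2.89 and 2.56, above all 6 other libraries. The ratio of Cd74 to H2-Aa was 3.36 to 4.41 in LPS-MIC-1 against at most 2.82 in the other groups, and that of Cd74 to H2-Eb1 was 7.76 to 14.9 (7.76 and 7.96 without replicate 3) against at most 5.75. Each of these LPS-MIC-1 differences had an exact 2-sided permutation p of 0.1, the smallest possible, and 0.188 after adjustment over 15 tests of ratios. The ratio of H2-Ab1 to H2-Aa overlapped between all groups (0.935 to 1.72 in LPS-MIC-1, 1.01 to 1.35 in control). That of H2-Ab1 to H2-Eb1 was 2.15 to 2.73 with LPS, below control (2.89 to 3.10) and below LPS-MIC-1 (2.76 to 3.32), again at an exact permutation p of 0.1 (0.188 adjusted), and control and LPS-MIC-1 overlapped. In order of level per transcript length, the muscle members ran from Cd74 over H2-Ab1 and H2-Aa, which did not differ beyond their spread, to H2-Eb1.

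H2-DMa in muscle measured 0.901, 1.84 and 0.954 FPKM in control, 0.909, 1.47 and 0 with LPS, and 1.23, 0.332 and 0.180 with LPS-MIC-1. Its groups overlapped in all 3 comparisons, and single libraries of 1 group ranged from 0 to about 30.2 counts. Cd86 measured between 0.0314 and 0.155 FPKM over the 9 libraries, about 1.03 to 5.11 counts. Cd80 was listed at 0 in all control and LPS libraries and in LPS-MIC-1 replicate 1, and measured 0.0461 and 0.131 FPKM in the other 2, under the 0.142 FPKM to which 3 counts correspond. Ciita was above 0 only in replicate 2 of each group, at 0.0710 FPKM for control, 0.216 with LPS and 0.149 with LPS-MIC-1. The increase of Cd80 and Cd86 seen in the C2C12 LPS libraries was thus not seen in the muscle libraries. Cd86 averaged about 3.08 counts in muscle control and 2.76 with LPS. For Cd80, at 0 in both groups, no fold could be formed.

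No tested member met the fold rule in muscle (limma, 0 of 4 in each comparison), where 1.25% of all genes were called in LPS against control, 15.1% in LPS-MIC-1 against LPS and 15.5% in LPS-MIC-1 against control. By the adjusted p at any fold change, a count added after seeing the data, 0 of 4 passed in LPS against control, where 15.7% of all genes did. By the same rule 3 of 4 tested members were lower in LPS-MIC-1 than with LPS alone, where 28.2% of all tested genes were lower by this rule, and the same 3 were lower than in control, where 28.5% were. The groups did not overlap for 1, 3 and 3 of the 8 members in the order above, against 36.5%, 64.2% and 64.6% of all tested genes, a background that leaves out genes under the FPKM filter, as 4 of the 8 members were.

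Markers of the cells that carry class II molecules were low in muscle. The 8 B cell markers summed to 0.693 to 0.897 FPKM in control, 0.351 to 0.677 with LPS and 0.164 to 0.348 with LPS-MIC-1, and the 10 dendritic cell markers to 1.99 to 2.74 in control, 2.55 to 2.83 with LPS, and 1.66 to 2.26 with LPS-MIC-1. The 15 macrophage markers summed to 25.2 to 30.2 FPKM in control, 39.4 to 41.2 with LPS, and 44.1 to 193 with LPS-MIC-1 (44.1 and 45.3 without replicate 3). The single macrophage markers went both ways: against LPS, 6 of the 15 were higher in all LPS-MIC-1 libraries, among them Fcer1g and Cd14, 2 were lower in all (C1qa and Mrc1) and 7 overlapped. Without replicate 3, Lyz2, Csf1r and Laptm5 were lower too, which made 5 lower and 6 higher. The B cell sum in LPS-MIC-1 lay below all control and LPS libraries, with 4 of its 8 markers at 0 in all 3 libraries, and the dendritic cell sum lay below LPS and overlapped control. Marker by marker, none of the 8 B cell markers and 1 of the 10 dendritic cell markers (Flt3) lay below LPS without overlap. The sum of the 12 muscle fibre markers was 180442 to 194567 FPKM in LPS-MIC-1 and 226603 FPKM or more in the other groups, but against LPS 8 of them were lower without overlap, 3 were higher (Tnnt3, Atp2a1 and Myh2) and Myh4 overlapped. In bulk tissue, fewer class II cells and less class II RNA per cell cannot be told apart, and the part of these markers in the result was not tested.

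In muscle LPS-MIC-1 replicate 3, Lyz2 measured 78.3 FPKM against 5.27 and 3.93 in replicates 1 and 2. The difference of that library from the mean of the other replicates was 9.88 FPKM for Cd74, 0.108 FPKM for Cd80 and -0.019 FPKM for Cd86, the latter pair under what 3 counts correspond to. In C2C12 LPS-MIC-1 replicate 1 the same difference was 13.97 FPKM for Cd74, 0.325 FPKM for Cd86 and -0.88 FPKM for Cd80.

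These differences were also set against the levels in the macrophage-marked C2C12 groups, for Cd74 and for the 7 macrophage markers above 100 FPKM there. For the muscle library, the markers gave 0.996% to 1.82% of the C2C12 control mean and 0.585% to 6.46% of the C2C12 LPS mean, and Cd74 gave 1.80% and 1.85%. For the C2C12 library, the markers gave 0.643% to 7.79% of the control mean and 2.41% to 2.92% of the LPS mean, and Cd74 gave 2.55% and 2.62%. Cd86 in the C2C12 library came to 39.4% of the control mean and 2.54% of the LPS mean, so that its place among the markers depended on the reference. Other members went the other way: in the C2C12 library Cd80 came to -1.61% and H2-DMa to -51.7% of the LPS mean. In the muscle library H2-Ab1 and H2-Eb1 lay below the mean of the other replicates (-0.628 and -0.507 FPKM), and H2-Aa lay above it (1.84 FPKM). The C2C12 and muscle tables were normalized separately, so a percentage set across them is approximate. The part of macrophage RNA in these values was not tested.

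The genes around the members were taken from 4 fixed lists. The first holds the other class II genes (the partners of H2-DMa and the H2-O chains among them), and none of its 6 genes passed the FPKM filter in either experiment. Chosen after their values were seen, H2-DMb1 in muscle measured 0.740, 0.734 and 1.55 FPKM in control, 1.08, 0.818 and 1.08 with LPS, and 0.265, 0.254 and 0.241 with LPS-MIC-1, so that LPS-MIC-1 lay below both groups, as for the chain genes. H2-Oa in C2C12, chosen likewise, measured 1.20 to 1.96 FPKM in control and 0.203 to 0.612 in LPS and was listed at 0 in LPS-MIC-1. H2-DMb1 and H2-DMb2 are near-identical copies, so the split of reads between them is uncertain. In muscle, H2-DMb2 went the other way in its means, with 0.180 FPKM in control, 0.081 with LPS and 0.299 with LPS-MIC-1, and its groups overlapped.

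The second list holds the DNA-binding complexes that recruit Ciita and the interferon-γ input (12 of 13 genes tested in C2C12, 10 in muscle). In C2C12, LPS raised 2 genes and lowered none by the call rule, beside 10.9% of all tested genes raised and 10.0% lowered (list median of the log2 fold change 0.18, all tested genes 0). These were Jak2, a kinase of the interferon-γ receptor (log2 fold change 1.86, adjusted p = 9.77e-07 in limma), and Rfxank, a subunit of the RFX complex (1.11, adjusted p = 6.70e-05 in limma). Rfx5 was lower with LPS (3.43 to 4.95 FPKM) than in control (9.96 to 10.95 FPKM) but was not called (-1.35, SE 0.702, adjusted p = 0.129 in limma). As for Cd74, that SE includes the spread among the LPS-MIC-1 libraries. In LPS-MIC-1 against LPS 6 of 12 were lower and none higher, where 25.6% of all tested genes were called lower and 24.3% higher (list median -1.19, all genes -0.047). In front were Rfx5, another RFX subunit (log2 fold change -4.40, from 4.07 to 0.212 FPKM, adjusted p = 0.000429 in limma), and Nfya, a subunit of NF-Y (-3.68, from 20.5 to 1.74 FPKM, adjusted p = 3.28e-05 in limma). In LPS-MIC-1 against control 5 were lower, where 22.1% of all genes were, again with Rfx5 (-5.76) and Nfya (-3.69) in front. Rfx5 was above 0 in LPS-MIC-1 replicate 1 alone (0.637 FPKM), and without that library its fitted changes were -5.36 and -6.72. The lists were refitted without this library after the data were seen. In that fit 7 genes of the list were lower than with LPS alone, where 26.7% of all tested genes were.

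In muscle, where the chain genes were lower in the LPS-MIC-1 group, Irf1 rose against both other groups. Irf1, an interferon-induced transcription factor, measured 4.98, 6.50 and 5.17 FPKM in control, 4.33, 4.11 and 4.01 with LPS, and 15.8, 16.7 and 15.4 with LPS-MIC-1. Its rise was 1.92 against LPS (log2 fold change, adjusted p = 9.87e-07 in limma) and 1.52 against control (adjusted p = 3.86e-06 in limma). It was the only one of the 10 tested genes that met the fold rule in muscle. By that rule 15.1% and 15.5% of all genes were called in these comparisons, and none of the list was called in LPS against control. By the adjusted p at any fold change, Irf1, Jak1 (0.52) and Ifngr1 (0.67 in limma) rose against LPS. Of the 10, 4 fell (Rfxap at -0.30, Creb1 at -0.60, Nfyc at -0.62 and Ifngr2 at -0.44), where 28.2% of all tested genes did. Against control Irf1, Jak1, Jak2 and Ifngr1 rose and 3 fell, where 28.5% of all tested genes fell. For LPS against control 2 rose and 2 fell, where 15.7% of all tested genes passed in either direction. The median over the list was 0.039 for LPS-MIC-1 against LPS, beside -0.0090 over all tested genes. Ifng itself, chosen after its values were seen, did not exceed 0.210 FPKM in any library of either experiment.

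The third list holds enzymes that process antigen and the invariant chain in endosomes (7 of its 10 genes were found and tested in both). In C2C12, LPS raised 2 and lowered 1 of 7 (10.9% and 10.0% of all tested genes), with the largest changes in Ctsl, cathepsin L (log2 fold change 2.23, adjusted p = 9.10e-08 in limma), and Ifi30, the lysosomal thiol reductase GILT (-1.63, adjusted p = 5.03e-07 in limma). Ctss, the cathepsin that trims the invariant chain in macrophages, averaged 440 FPKM without LPS, 243 with it and 2.73 with LPS-MIC-1 (log2 fold change against LPS -7.82, adjusted p = 0.00013 in limma), low in the same libraries as Cd74. The last mean came mostly from replicate 1 (7.55 FPKM, against 0.193 and 0.458), and without it the mean was 0.325 FPKM and the change -9.23. In all, 4 of 7 genes were called lower in LPS-MIC-1 than with LPS alone, where 25.6% of all tested genes were (list median -1.22, all genes -0.047). Without replicate 1 it was also 4, where 26.7% of all tested genes were. In muscle, Ctsl was the only gene called of 7, higher in LPS-MIC-1 than in LPS (log2 fold change 1.54, adjusted p = 1.65e-07 in limma) and than in control (1.47, adjusted p = 2.03e-07 in limma). Of all tested genes, 15.1% and 15.5% were called in these comparisons, so the count is not a result about the list.

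The fourth list holds other costimulatory ligands and receptors (5 of 9 tested in C2C12, 3 in muscle). In C2C12, Cd274 (PD-L1, an inhibitory ligand that can also bind Cd80) averaged 1.64 FPKM without LPS, 75.8 with it and 2.10 with LPS-MIC-1 (log2 fold changes of 5.45 and then -5.34, adjusted p = 1.02e-05 and 4.42e-06 in limma; 1.20 FPKM and -5.89 without LPS-MIC-1 replicate 1). Cd40, the receptor for T cell help, averaged 1.90, 27.6 and 8.77 FPKM in the same order. Like Cd80, it lay in LPS-MIC-1 between control and LPS, and was called higher than control (log2 fold change 2.13, adjusted p = 1.61e-06 in limma). Icosl, the ligand of ICOS, was lower in LPS-MIC-1 than with LPS alone (-4.10, adjusted p = 3.90e-05 in limma). Of the LPS-MIC-1 libraries only replicate 1 held it above 0 (0.244 FPKM), and the change was -4.70 without that library. In C2C12, 2 genes of the list were higher and 1 was lower with LPS (list median 0.91, all genes 0), beside 10.9% and 10.0% of all tested genes. The lower one, Cd28, averaged 2.70 FPKM in control, 0.567 with LPS and 0.976 with LPS-MIC-1, so it passed the FPKM filter only through control. In LPS-MIC-1 against LPS 4 of 5 were lower, where 25.6% of all tested genes were (list median -1.71, all genes -0.047). Without replicate 1 it was also 4 of 5, where 26.7% were. Icosl, one of the 4, averaged 1.86 FPKM in control, 2.50 with LPS and 0.081 with LPS-MIC-1, so LPS-MIC-1 did not help it past the filter. These counts and medians were thus partly fixed by the filter.

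In muscle, all 3 tested genes of the costimulation list were called in LPS-MIC-1 against LPS, 2 higher and 1 lower, where 15.1% of all tested genes were called (list median 1.38, all genes -0.0090). Icosl averaged 0.602 FPKM in control, 0.452 with LPS and 2.15 with LPS-MIC-1, so it passed the FPKM filter only through LPS-MIC-1. Its calls as higher in that group, the count of 3 and the list median were thus partly fixed by the filter. Without LPS-MIC-1 replicate 3 Icosl was under the FPKM filter, and the other 2 were called (list median -0.53), where 15.0% of all tested genes were. Icosl measured 0.434, 0.377 and 0.546 FPKM in LPS and 2.09, 2.34 and 2.01 in LPS-MIC-1 (log2 fold change 2.03, adjusted p = 0.000228 in limma). Cd274 measured 2.26, 2.61 and 2.69 FPKM in LPS and 6.33, 7.20 and 6.62 in LPS-MIC-1 (1.38, adjusted p = 0.000212 in limma). Cd28, the T cell receptor for Cd80 and Cd86, measured 2.54, 2.79 and 2.47 FPKM in LPS and 0.384, 0.405 and 0.496 in LPS-MIC-1 (-2.36, adjusted p = 2.52e-06 in limma). Cd3e, a chain that defines T cells, was at or below 0.293 FPKM in all 9 muscle libraries. Of the 5 T cell markers found, only Cd3e was lower than with LPS alone without overlap, and 4 overlapped. Compared with control, Cd3d was higher and Cd3e and Cd2 were lower. Against control the log2 fold changes were 1.71 for Icosl, 1.49 for Cd274 and -2.69 for Cd28.

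**Figure D4:**
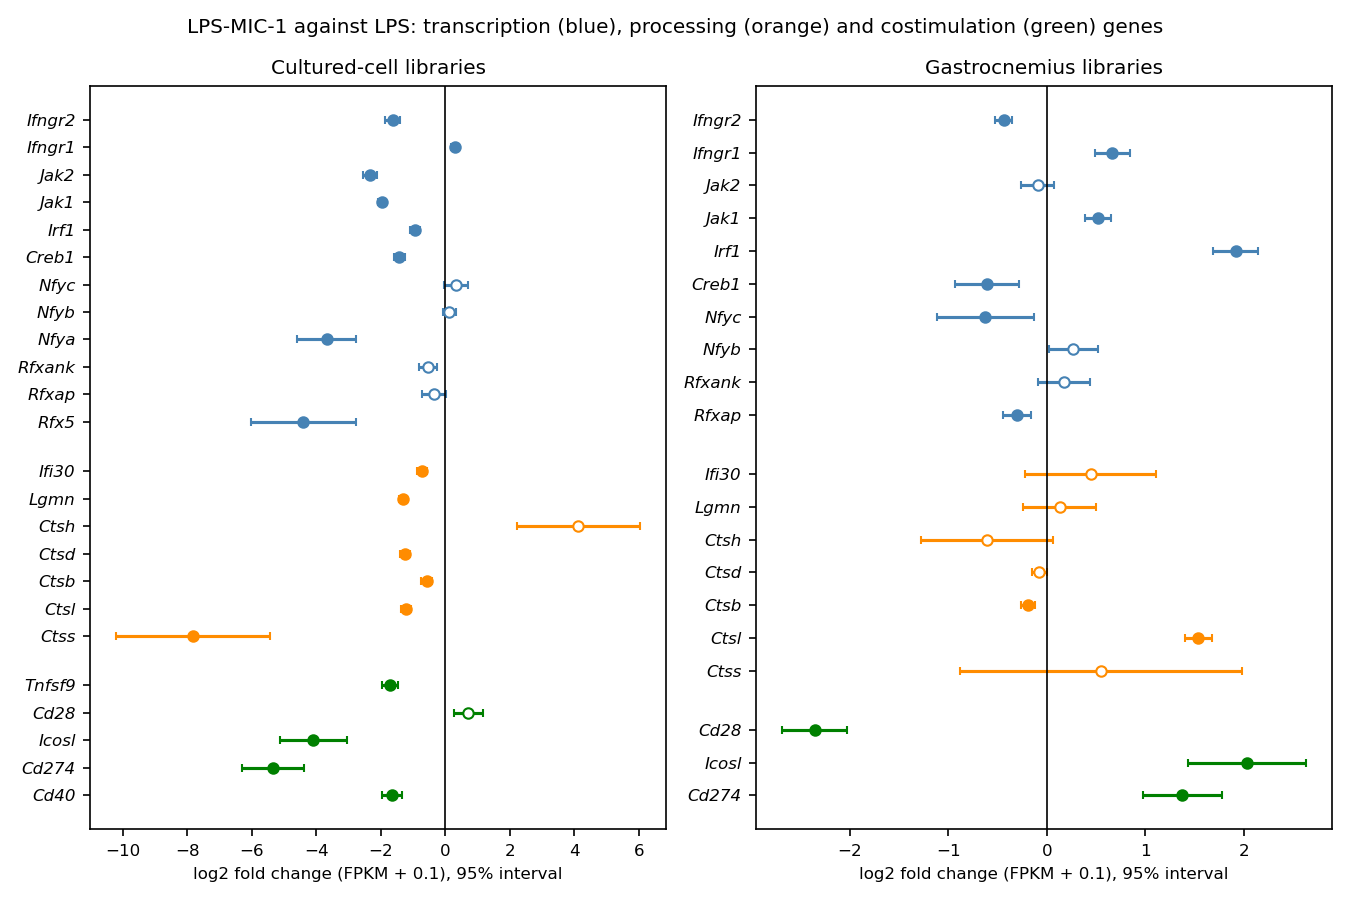
Log2 fold change (FPKM + 0.1) of LPS-MIC-1 against LPS with 95% intervals from limma for the tested genes of 3 lists, in C2C12 (left) and gastrocnemius (right, on a narrower axis); filled points passed the adjusted p of their experiment at any fold change, open points did not. Irf1 lies at -0.96 in C2C12 and at 1.92 in muscle, Cd274 at -5.34 and 1.38, and Icosl at -4.10 and 2.03.

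As a description of pattern, the 5 tested genes most like Cd74 over the 9 C2C12 libraries were Ube2q2, Xpo1, Coro1a, Csf2ra and Dock2, each with a Pearson r of 0.999 on log2(FPKM + 0.1) among 10876 genes. All points share the step between the LPS-MIC-1 libraries and the other 6. In muscle the 5 were Gusb (r = 0.907), Alox5ap (0.901), Cotl1 (0.900), Unc93b1 (0.893) and Pld4 (0.874), and each had its highest value in LPS-MIC-1 replicate 3, for example 5.67 FPKM for Gusb against 1.50 and 1.36 in replicates 1 and 2. That library was also the highest for Cd74.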

How the data were processed

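RNA was sequenced from 18 libraries. FPKM values, made by the authors from kallisto pseudoalignments and tximport gene summaries, were deposited separately for every library. The submitters' notes name mm9. The transcript set is not given in the sources used here, and H2 genes differ in sequence between strains, whose effect was not tested. The authors also deposited 6 DESeq2 tables with their own fold changes and p-values, which were not used. From 5 of them the base means, a signal (mean of size-factor-normalized counts over 6 libraries) deposited by the authors, were divided by the mean FPKM of the same libraries to give counts per FPKM. The depth of single libraries is unknown. The muscle table has 9 unnamed value columns, which were not used.

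Libraries were grouped by their labels. Each experiment was fitted apart over 9 libraries with limma 3.58.1 in R 4.3.3 on log2(FPKM + 0.1), with group means and eBayes with trend, for genes with a mean FPKM over 1 (10877 in C2C12, 9475 in muscle), and was tested on simulated data. The fold and p thresholds follow the study's methods. Permutation tests (scipy 1.17.1) were exact and 2-sided. Members and lists were chosen with earlier results of these data known. Genes were named by rule: all 8 members, the 2 largest called changes of each class II list and comparison, the top 3 of each identity list by mean FPKM, and the 5 genes most correlated with the most abundant member. Others are said to have been chosen after their values were seen, and so was Cd274 in muscle. Identity lists held macrophage, dendritic cell, B cell, T cell, myoblast, muscle fibre and endothelial markers. Beside the sums in the results, the fibre list reached at most 244129 FPKM in muscle and 1036 in C2C12, the endothelial list 93.0 and 0.876, the myoblast list 1893 in muscle, the T cell list 1.01 and 9.69 (mostly Lck), and in C2C12 the dendritic cell list 7.68 and the B cell list 1.88. Of the list of transcription and interferon-γ genes, 1 gene is not reported here and is left out of its counts and medians. Positions are not given because only gene names of GRCm38.p6 were used.

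Alternatives, 1 at a time, were a pseudocount of 1 or 0.01; testing each gene above 0 in 3 or more libraries, or only genes over a mean of 5 FPKM; scaling by median ratios or by quantiles; eBayes with no trend; a fit of just the 6 libraries in question; the replicate number as a block; and omission of each library.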

Additional observations from a re-analysis of the deposited data

Results flagged for a closer look

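The LPS libraries of H2-Ab1 lay on opposite sides of their controls in the 2 experiments. All 3 LPS libraries were above all 3 control libraries in C2C12, with a difference of 0.76 between the group means of log2(FPKM + 0.1), and all 3 were below in muscle, with a difference of -0.20. The difference between the experiments was not tested. In C2C12 the gene was under the FPKM filter and rested on about 4.14 to 11.9 counts a library in these groups, and in muscle on 138 to 175.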

How the results depend on the processing

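Cd74 and Cd80 kept direction and side of the threshold in all C2C12 comparisons under every alternative. Of 426 single-gene values recomputed, 383 kept both, 25 lost the threshold, 3 gained it and 15 changed sign. The number of members called for LPS against control in C2C12 ranged from 1 to 3 on leaving out single libraries, and only Cd80 was called without any one control or LPS library. In muscle, LPS-MIC-1 against LPS gave 1 member (H2-Eb1) under quantile normalization and 3 by the adjusted p at any fold change, and LPS-MIC-1 against control gave 3 by the latter. Quantile normalization turned the sign of H2-DMa in C2C12 LPS-MIC-1 against control (0.12) and of Cd74 in muscle LPS-MIC-1 against LPS (-0.089) and against control (-0.13), none past the threshold in any alternative. Leaving out single libraries turned the sign of small changes, in the ranges -0.29 to 0.072 (H2-DMa), -0.17 to 0.15 and -0.18 to 0.14 (the same Cd74 changes), and, for LPS against control in muscle, -0.21 to 0.052 (H2-Aa), -0.0073 to 0.15 (H2-Eb1) and -0.061 to 0.075 (Cd74). Cd86 in C2C12 LPS against control missed the threshold at a pseudocount of 0.01 (adjusted p = 0.0238 in limma), and in LPS-MIC-1 against control passed it at a pseudocount of 1 (log2 fold change -0.73) and under quantile normalization (-3.27). H2-DMa in LPS-MIC-1 against LPS missed it with only the 6 libraries compared (adjusted p = 0.00356 in limma). The causes were not tested.

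Over all genes, muscle calls for LPS against control went from 118 to 71 at a pseudocount of 1 and to 57 at a mean FPKM over 5. Those for LPS-MIC-1 against LPS went from 1431 to 2158 without a filter and to 656 at a mean FPKM over 5, and those against control from 1464 to 2240 and 677. Quantile normalization moved the median of all genes to -0.12 and -0.10 and the share of higher calls from 64.0% to 53.9% and from 60.4% to 52.3%.

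No clear pairing of libraries by replicate number was seen, but 3 libraries a group cannot exclude one. Same-numbered deviations correlated between -0.0757 and 0.0573 in C2C12 and between -0.0540 and 0.0823 in muscle. In C2C12 2 of 9 and in muscle 5 of 9 correlated best with their own number, among them every pair of muscle LPS with LPS-MIC-1. With the replicate block, 2 members were called for LPS against control in C2C12 in place of 3, since H2-DMa missed the threshold (adjusted p = 0.00431 in limma), and 3 in place of 4 for LPS-MIC-1 against LPS (0.00337). Depth limits Ciita, H2-Aa, H2-Ab1 and H2-Eb1 in C2C12 and Cd80, Cd86, Ciita and H2-DMa in muscle.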
